A study of Homo sapiens with 2 samples.

Results

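The AP-1 transcription factor genes were described in Panc1, an established human pancreatic carcinoma cell line. The 9 genes were FOS, FOSB, FOSL1, FOSL2, JUN, JUNB, JUND, ATF3 and BATF, taken as every transcript row that the deposited files name for them, which gave 18 of 45033 transcript rows and 9 of 23595 genes. Total RNA was taken from cells pretreated for 24 h with clofibrate, a lipid-lowering fibrate and agonist of the nuclear receptor PPARalpha, and from cells pretreated for 24 h with the solvent DMSO. Each pretreatment had 1 array, so no difference below has a replicate check, no test was possible, and every value describes 1 pair of arrays. The labels give no dose for clofibrate. The family was selected on the log2 differences of this same pair of arrays, so the differences of its members are a description and support nothing.

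AP-1 is a dimer of basic leucine zipper (bZIP) proteins. Fos proteins do not form stable dimers with one another and bind DNA with a Jun partner, whereas Jun proteins can also pair among themselves. Growth factor signals acting through the ERK and JNK kinases switch several of these genes on within minutes, and the dimers then bind the TGAGTCA site of genes for proteases, growth factors and cytokines. FOSL1, which encodes FRA-1, is known as the Fos protein that stays high in many carcinoma cells.

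Each AP-1 row was an intensity on a linear scale, which the authors had summarised from 3 probes. Both arrays had a median of 402 over all rows, and a row of 5000 random probes, the background level, read 48.1 with clofibrate and 48.7 with DMSO. All 18 AP-1 rows read above the random probes on both arrays, by 2.15 to 58.9 times. Differences are log2 values, clofibrate minus DMSO, and a gene's difference is the mean over its rows. A gene is called bright here where its mean log2 level over both arrays reached the all-gene median (8.51, or 364 on the linear scale). That held for 11798 genes and for 6 of the 9 members, FOSL1, FOSB, JUN, JUNB, JUND and ATF3, while FOS, FOSL2 and BATF lay below it. The spread given beside a difference is the SD among genes in the same bin of level (40 equal bins over all genes, here the like-level SD), since no replicate gives one. Beyond this grouping by signal, intensities of different probes are in general not set against each other. Sums over marker genes and the pick of a gene's brightest row do combine or rank different probes. These were bulk samples, so fewer cells of a kind and less RNA per cell cannot be told apart.

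Cell identity was read from marker lists. Of 6 markers of carcinoma epithelium in Panc1, the keratin genes KRT8 and KRT18 and the vimentin gene VIM were bright, KRT7 and EPCAM were not, and KRT19 read 34.8 with clofibrate and 50.3 with DMSO, at the level of the random probes. Of the acinar, islet and endothelial markers none was bright, and of the 6 fibroblast and stellate markers COL1A1 and ACTA2 were. The summed intensity of the 6 Panc1 markers was 5818 with clofibrate and 6309 with DMSO. Most of both sums was VIM, at 3755 with clofibrate and 4189 with DMSO.

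FOSL1 stood apart from the rest of the family. Its single row (NM_005438, chromosome 11, 65416267 to 65424573, hg18) read 443 with clofibrate and 729 with DMSO, or 8.79 and 9.51 on the log2 scale. The clofibrate array was thus 0.72 lower on the log2 scale (a difference of -0.72, 1.65-fold), beside a like-level SD of 0.28. Of the 6 bright members FOSL1 was the 1 that read lower by 1.5-fold or more, beside 1.32% of all bright genes. No bright member read higher by that much, as 1.31% of bright genes did. At 2-fold, which 0.11% of bright genes passed downward and 0.136% upward, no member would be counted.

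Among the 590 genes in the same bin of level, 5 including FOSL1 itself had a difference at or below that of FOSL1 (0.847%). Over all bright genes it was 56, or 0.475%. FOSL1 rested on 1 row of 3 probes, so no other row of the gene bears on it. Its difference lay between -0.76 and -0.72 under the 8 other scalings and gene summaries that were tried. Most of these could not move it. With 1 row the 3 gene summaries had to return the same value, and the series' value table holds the same values. Centring had little to change, as both arrays had a median of 402. Of the 13 genes within 100 kb of FOSL1 on hg18, 7 were bright. These neighbours ran from -0.07 for SART1, a splicing factor gene, to 0.35 for MUS81, a DNA endonuclease gene, and 1 of the 7 lay below 0, so FOSL1 was lower than each of them.

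**Figure D1:**
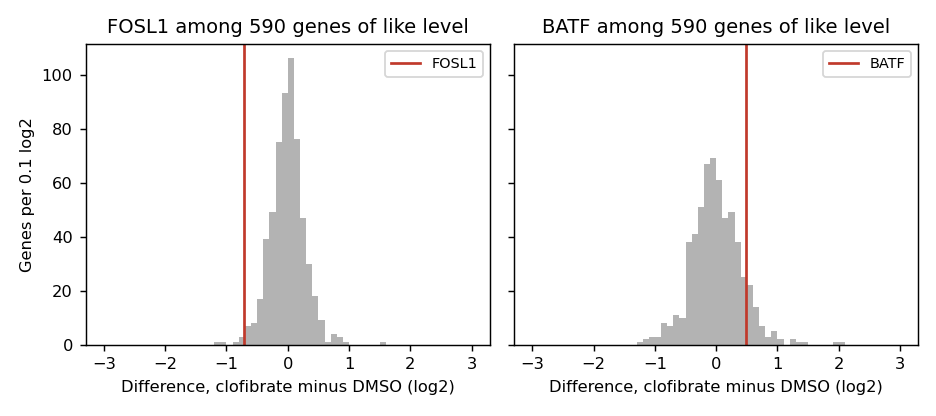
Histograms of the log2 difference, clofibrate minus DMSO, for the 590 genes in the level bin of FOSL1 (left) and the 590 in the level bin of BATF (right), with the named gene as a red line. FOSL1 at -0.72 lies in the lower tail of its bin, and BATF at 0.49 lies within the upper slope of a wider distribution.

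The other Fos genes lay closer to 0. FOSB, an immediate early Fos gene with a known role in neurons, had 1 row (NM_006732, chromosome 19, 50663092 to 50670276), which read 407 with clofibrate and 512 with DMSO. Its difference was -0.33 with a like-level SD of 0.30, and 10.5% of the 590 genes of like level lay at or below it. FOSB was the second lowest member and the other bright Fos gene.

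FOS, the archetypal immediate early gene, lies on chromosome 14 and had 2 rows under the bright level. NM_005252 (74815283 to 74818666) read 131 with clofibrate and 105 with DMSO. BC004490 (74815312 to 74818404) read 212 with clofibrate and 215 with DMSO. The rows thus differed by 0.32 and -0.02, and their mean of 0.15 was within the like-level SD of 0.49. With the brighter row alone FOS was on the other side of 0, at -0.02. FOSL2, which encodes FRA-2, the closest relative of FRA-1, lies on chromosome 2 and also had 2 dim rows. BC022791 (28469858 to 28489341) read 300 with clofibrate and 276 with DMSO, and NM_005253 (28469282 to 28491020) read 145 with clofibrate and 163 with DMSO. Those rows, at 0.12 and -0.17, were on opposite sides of 0, and the gene's mean was -0.02. FOSL1 and FOSL2, the Fos genes that lack the strong activation domain of FOS and FOSB, thus differed by -0.72 and -0.02.

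The 3 Jun genes, which supply the partners that Fos proteins need, all lay within 0.11 of 0. JUN, the main transactivating Jun gene, lies on chromosome 1 and had 3 rows. BC006175 (59020301 to 59021757) read 2832 with clofibrate and 2306 with DMSO, a difference of 0.30. BC068522 (59019746 to 59022307) read 1353 with clofibrate and 1174 with DMSO, a difference of 0.20. NM_002228 (59019050 to 59022373), whose span holds both of the others, read 961 with clofibrate and 1089 with DMSO, a difference of -0.18. The JUN rows therefore disagreed in sign and spanned 0.48, where the median span over bright genes of 3 rows was 0.35. The gene's mean was 0.11 with a like-level SD of 0.23, and its brightest row alone gave 0.30.

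JUNB, a weaker transactivator that can oppose JUN, had 1 row (NM_002229, chromosome 19, 12763309 to 12765125), which read 685 with clofibrate and 668 with DMSO, a difference of 0.04. JUND, the Jun gene known for steady expression in resting cells, also lies on chromosome 19 and had 2 rows. NM_005354 (18251569 to 18253468) read 558 with clofibrate and 512 with DMSO, and AK223630 (18251703 to 18253432) read 448 with clofibrate and 442 with DMSO. Both JUND rows were above 0, at 0.12 and 0.02, as in 31.2% of bright genes of 2 rows, with a gene mean of 0.07 inside the like-level SD of 0.30. JUNB and JUND gave the smallest differences among the bright members.

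ATF3, a stress-induced bZIP factor that pairs with Jun proteins and often represses, lies on chromosome 1 and had the most rows. NM_001030287 (210805373 to 210860740) read 1252 with clofibrate and 1523 with DMSO. AB078026 (210854986 to 210859518) read 1536 with clofibrate and 1672 with DMSO. AY313927 (ending at 210859216) read 805 with clofibrate and 880 with DMSO, and AY313926 (ending at 210859212) read 605 with clofibrate and 636 with DMSO. All 4 rows were lower with clofibrate, by a narrow range of -0.28 to -0.07. The ATF3 rows spanned 0.21, against a median span of 0.45 over the 589 bright genes of 4 rows, of which 13.1% had every row below 0. The mean of -0.15 was within the like-level SD of 0.24, and 22.2% of the genes of like level lay at or below it. The 4 rows overlap on the genome and share the same 2 RNA samples, so they are not replicates.

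BATF, which lacks a transactivation domain, dampens Fos and Jun activity and drives lymphocyte programmes with IRF partners, was the highest member. It lies on chromosome 14 and had 2 rows under the bright level. BC032294 (75058539 to 75083080) read 251 with clofibrate and 158 with DMSO, a difference of 0.66. NM_006399 (75058536 to 75083086) read 258 with clofibrate and 206 with DMSO, a difference of 0.32. Both rows were higher with clofibrate, as in 23.5% of dim genes of 2 rows. The mean of 0.49 (1.41-fold) stood beside a like-level SD of 0.41, and 10.7% of genes of like level lay at or above it. The first row was 1.58-fold higher, and of all transcript rows 6.41% were higher by 1.5-fold or more and 6.42% were lower by that much. Beside it, of 7 leukocyte markers 1 was bright. PTPRC and CD3E, which define leukocytes and T cells, were at or below the random probes on both arrays. The summed intensity of the 7 markers was 1175 with clofibrate and 1086 with DMSO.

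**Figure D2:**
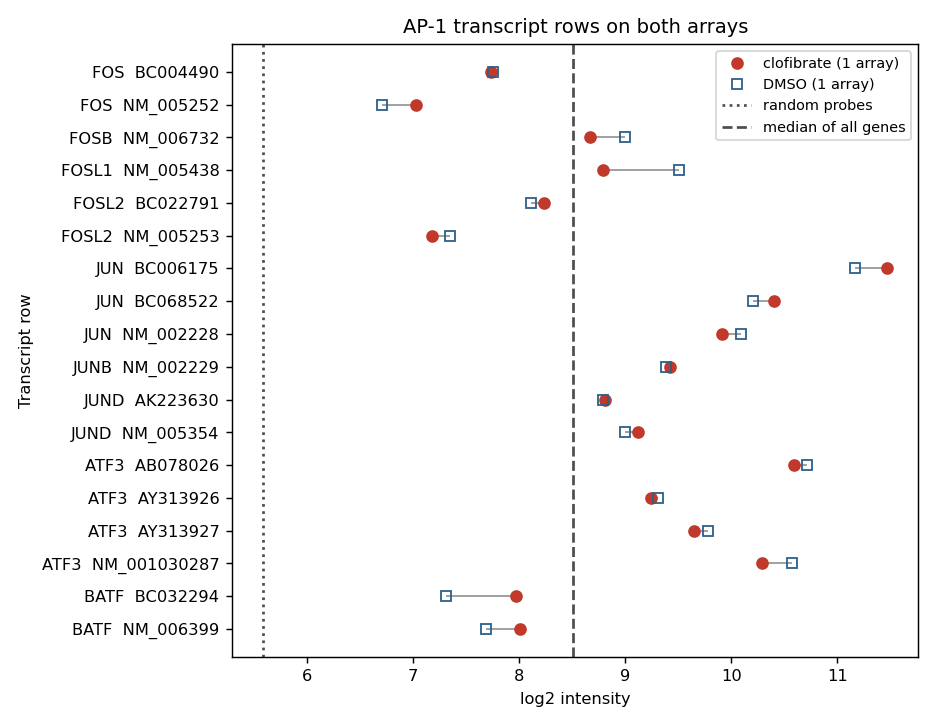
Log2 intensity (x axis) of each of the 18 AP-1 transcript rows (y axis) on the clofibrate array (red circles) and the DMSO array (open blue squares), joined by a line. The dotted line is the random probes of the clofibrate array and the dashed line the median level of all genes. The widest gaps are those of FOSL1, lower with clofibrate, and of BATF row BC032294, higher with clofibrate.

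As a family the AP-1 genes were centred close to 0. Of the 6 bright members 3 lay below 0 and 3 above, where 47.9% of all bright genes lay below 0 and 52.1% above. The median over bright members was -0.06, beside 0.01 over all bright genes, and over all 9 members it was 0.04. Reading genes by their brightest rows also gave 0.04, but only 5 members were then bright, 2 below 0 and 3 above. The sign of the family median thus depends on which members enter it. Without FOSL1 the other 5 bright members ran from -0.33 to 0.11 with a median of 0.04. By subfamily, both bright Fos genes lay below 0 and all 3 Jun genes above it. Of the 18 rows 9 were below 0 and 9 above, beside 49.5% of all rows below 0. Of the 6 members with several rows, ATF3, JUND and BATF had every row in 1 direction, and JUN, FOS and FOSL2 did not.

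**Figure D3:**
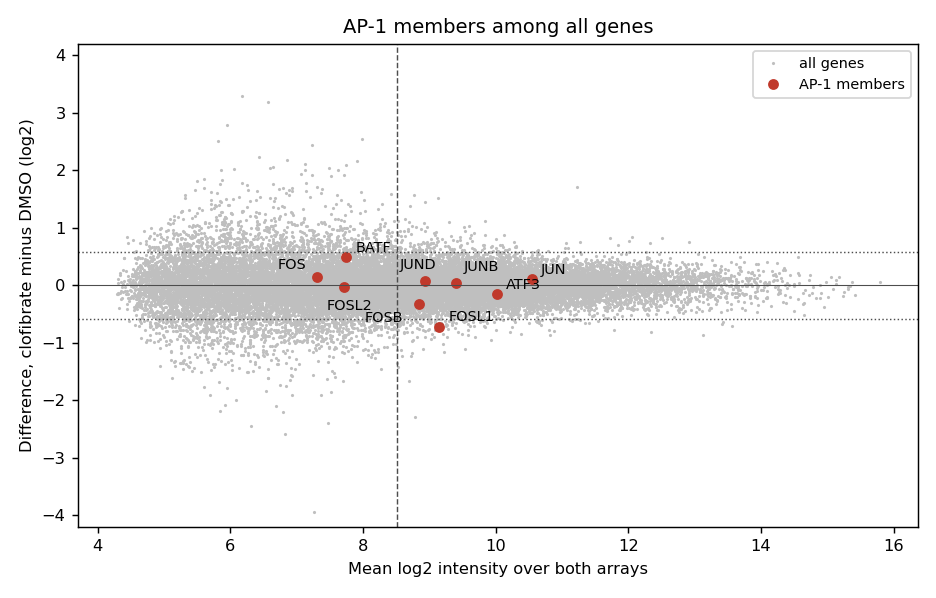
Difference (log2, clofibrate minus DMSO) against mean log2 intensity over both arrays for all genes (grey) and the 9 AP-1 members (red, named). Dotted lines mark 1.5-fold and the dashed line the median level of all genes. FOSL1 is the member beyond a dotted line, and the cloud is wider at the low levels where FOS, FOSL2 and BATF lie.

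Upstream DNA was read because Jun and ATF3 genes are known to be targets of AP-1 and ATF dimers themselves. RefSeq promoter windows (GRCh38.p14, the 250 bases before the gene's start) matched 8 of the 9 members, all but FOSL1. They were searched on both strands for the AP-1 site TGAGTCA, whose other strand reads TGACTCA, for the CRE TGACGTCA, and for the variant TGACATCA (TGATGTCA on the other strand). JUN, JUND and ATF3 held 1 match each, and no matches overlapped. None of the 8 windows held the AP-1 site itself. At least 1 of the 3 motifs was in 8.17% of all windows of this length. The AP-1 site was in 4.16% of 27305 windows of the same length, the CRE in 1.77%, and the variant in 2.45%. The 3 windows with a match are shown 5′ to 3′ on the gene's strand, with the match in capitals. JUN is at chr1:58784048-58784297 on the minus strand, JUND at chr19:18281623-18281872 on the minus strand, and ATF3 at chr1:212565157-212565406 on the plus strand.
JUN: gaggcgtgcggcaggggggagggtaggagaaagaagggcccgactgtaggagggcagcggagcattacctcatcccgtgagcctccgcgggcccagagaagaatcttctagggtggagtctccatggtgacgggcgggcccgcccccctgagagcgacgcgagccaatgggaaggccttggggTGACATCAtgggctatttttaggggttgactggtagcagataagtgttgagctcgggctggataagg
JUND: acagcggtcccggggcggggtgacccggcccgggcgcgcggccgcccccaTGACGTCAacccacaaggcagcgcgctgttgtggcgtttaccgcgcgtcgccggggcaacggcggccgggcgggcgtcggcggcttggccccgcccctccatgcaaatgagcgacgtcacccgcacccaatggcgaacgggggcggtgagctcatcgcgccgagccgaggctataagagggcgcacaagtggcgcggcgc
ATF3: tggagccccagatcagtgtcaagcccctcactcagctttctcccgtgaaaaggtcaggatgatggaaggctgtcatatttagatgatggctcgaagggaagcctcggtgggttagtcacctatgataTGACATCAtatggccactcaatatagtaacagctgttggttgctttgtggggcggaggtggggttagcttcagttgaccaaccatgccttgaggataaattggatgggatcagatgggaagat
The variant began 67 bases before the start in JUN and 123 before it in ATF3, and the CRE began 200 bases before the start in JUND. The bright genes with these windows had mean differences of 0.11 (JUN), 0.07 (JUND) and -0.15 (ATF3). By these means the 2 genes that share the variant lay on opposite sides of 0. The JUN rows themselves ran from -0.18 to 0.30 and the ATF3 rows from -0.28 to -0.07. ATF3 rows AB078026, AY313927 and AY313926 begin at 210854986 and NM_001030287 at 210805373 (hg18), whereas 1 window was read for the gene. That window cannot lie directly before the start of every row, so the mean of -0.15 also covers rows that begin elsewhere. A match is a description of letters and not a shown binding site.

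Other bZIP factors that pair or compete with AP-1 were read next. All 27 listed were measured and 16 were bright, with 10 below 0, 6 above and a median of -0.07. Of all bright genes 47.9% lay below 0 and 52.1% above. At 1.5-fold or more, 1.31% of all bright genes read higher and 1.32% lower. JDP2, a Jun dimerisation partner that represses AP-1 sites, was the 1 bright member at least 1.5-fold higher. Its row (NM_130469, chromosome 14, 74968589 to 75006909) read 533 with clofibrate and 348 with DMSO, a difference of 0.61 with a like-level SD of 0.33. MAF, a large Maf factor, was the 1 at least 1.5-fold lower at -0.66, but its rows read 602 and 144 with clofibrate and 729 and 296 with DMSO, differences of -0.28 and -1.04. NFE2L1, which controls proteasome genes, was at 0.45 with its 3 rows from 0.34 to 0.62. ATF4, the effector of the amino acid and ER stress responses, was at 0.35 with rows at 0.15 and 0.54.

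FOS, JDP2 and BATF lie in that order on chromosome 14 (hg18), with 150 kb between FOS and JDP2 and 51.6 kb between JDP2 and BATF. JDP2 and both BATF rows were higher with clofibrate, by 0.61, 0.66 and 0.32, while the 2 FOS rows were at 0.32 and -0.02. The other close pair of bZIP genes was ATF3 and BATF3 on chromosome 1, with 65.6 kb between them. BATF3, a relative of BATF, read 573 with clofibrate and 521 with DMSO, a difference of 0.14, and so lay on the other side of 0 from ATF3.

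The kinases that act on AP-1 showed no member past 1.5-fold among their bright genes. All 16 ERK cascade genes were bright, with 6 below 0, 10 above and a median of 0.05. The RAF kinase gene ARAF was at 0.31, the MEK gene MAP2K2 at 0.32 and NRAS at -0.28. Of the JNK and p38 genes 11 of 19 were bright, with 7 below 0, 4 above and a median of -0.01. They included MAPKAPK2, a p38 effector kinase, at 0.46 in both of its rows, MAP3K4 at -0.34, MAP2K3 at 0.18 and the JNK gene MAPK9 at -0.28. Below the bright level, MAPK8, which encodes JNK1, was 0.75 higher with rows at 0.34 and 1.16, and MAP3K5, a stress kinase, was at -0.60 with rows at -0.26 and -0.94. MAPK8 and MAP3K5 were singled out after their values were seen. Of all genes under the bright level 7.75% were higher by 1.5-fold or more and 7.91% were lower by that much.

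Genes switched on by the same signals as FOS were read beside the 47.9% of all bright genes that lay below 0. Of 27 immediate early genes outside AP-1, 15 were bright, with 10 below 0, 5 above, none at 1.5-fold and a median of -0.09. SGK1, a serum-induced kinase gene, was at -0.42, CCN1, a matrix protein gene, at -0.33, ZFP36L1, an mRNA decay factor gene, at -0.18 and IER5 at 0.24. Of 13 ERK feedback genes 5 were bright, and all 5 lay below 0, from -0.24 to -0.01 with a median of -0.07, while over all 13 measured 9 lay below 0 and 4 above. They included the phosphatase gene DUSP4 at -0.24, whose rows disagreed at -0.94 and 0.46, ERRFI1 at -0.08, ETV4 at -0.07 and SPRY2 at -0.05. Of the 8 genes for SRF, its ternary partners and coactivators, which drive FOS, 7 were bright, with 3 below 0, 4 above and a median of 0.10. SRF was at 0.22, CREBBP at 0.27, EP300 at -0.28 and ELK3 at -0.37.

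Known AP-1 target genes lay on both sides of 0. Of 30 measured, 11 were bright, with 5 below 0, 6 above, none at 1.5-fold and a median of 0.08. VEGFA, an angiogenic factor gene, was at 0.47, but its 5 rows ran from -0.05 to 1.14. PLAUR, the urokinase receptor gene, was at 0.36 with 3 rows from -0.06 to 0.96, GJA1, a gap junction gene, at -0.26 and LMNA, a lamin gene, at 0.20. Below the bright level 4 of 19 targets read higher by 1.5-fold or more and none read lower by that much, where 7.75% and 7.91% of all genes under that level did. These 4, named after their values were seen, were AREG, AXL, MMP1 and EREG. AREG, an EGF receptor ligand gene, read 193 with clofibrate and 92 with DMSO in 1 row. AXL, a receptor tyrosine kinase gene, had 1 row at 191 with clofibrate and 35.2 with DMSO, the second below the random probes, and another row at 420 with clofibrate and 402 with DMSO. The collagenase gene MMP1 did not exceed the random probes on either array and the ligand gene EREG did not with DMSO, so neither has a usable fold.

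Genes for AP-1 turnover and cofactors had 14 of 15 members bright, with 9 below 0, 5 above and a median of -0.02. The corepressor gene NCOR1 was at -0.40 with 4 rows from -0.78 to -0.18, COPS5, whose product binds JUN, at -0.31 and the coactivator gene NCOA1 at -0.23.

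**Figure D4:**
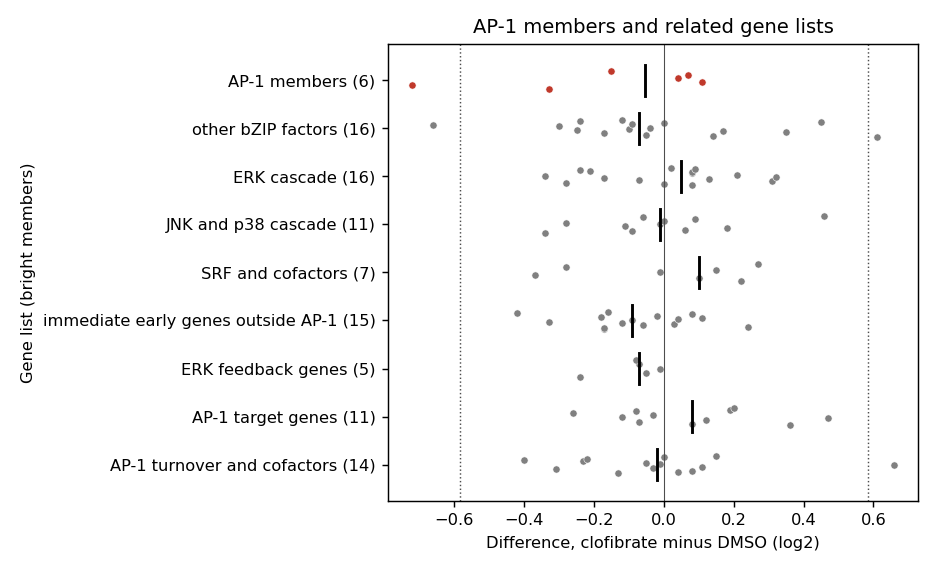
Difference (log2, clofibrate minus DMSO) of each bright gene (points) in the AP-1 family (red) and in the 8 related gene lists (grey), with the list median as a black bar and the number of bright genes in brackets. Dotted lines mark 1.5-fold, and every median lies between -0.09 and 0.10.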

How the data were processed

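The deposited values are intensities, 1 per transcript row and on a linear scale. Per the submitters' processing notes the authors summarised them by RMA, with no version or settings stated there. Transcript positions were on hg18 and the AP-1 rows were summaries of 3 probes, per the file headers. Labelling was with Cy3, per the labels. RMA usually makes arrays alike in distribution, which would hide a change common to most genes. The value table of the series held the same values in all 45033 rows.

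Intensities were converted to log2 without a further normalization. Of the rows 42947 had a symbol, and 38916 matched a RefSeq gene table (GRCh38.p14) by gene ID for current symbols. No test, p-value or SE was computed. The members and gene lists were chosen with earlier results of these data known. Named genes were all members and up to 4 bright genes of each list with the largest absolute difference. A planned listing of genes nearest to FOSL1 in log2 intensity is left out, since it compares different probes. Genes past 1.5-fold below the bright level and genomic neighbours were added later. A few genes under this rule are left out. Counting was tested on simulated data. Alternatives were run with limma 3.58.1 in R 4.3.3 and statsmodels 0.14.6 in Python 3.11.15, with figures from matplotlib 3.10.9.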

Additional observations from a re-analysis of the deposited data

How the results depend on the processing

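The alternatives were centring on the median, quantile normalization, loess on mean level, the series' value table, loess on log10 span (fraction 0.3), 3 level filters, 3 gene summaries and 2 other thresholds. None moved a member's difference by more than its like-level SD, and FOS and FOSL2 changed sign with the brightest row, to -0.02 and 0.12. The gene summaries could not move the 3 members of 1 row (FOSL1, FOSB and JUNB), and the series' value table could not move any member. The family median ran from -0.08 to 0.04 over 11 alternatives and was below 0 in 7. With no level filter, or with all genes above the random probes on both arrays, 5 members lay above 0 and 4 below. With the filter at the 75th percentile 2 members were left, JUN and ATF3, with 1 below 0, 1 above and 0 at least 1.5-fold lower. The count of bright members lower was 0 at 2-fold and 2 (FOSL1 and FOSB) at the lower threshold tried. With the brightest rows the list median was -0.05 for AP-1 targets, -0.24 for other bZIP factors, -0.15 for turnover and cofactors and -0.16 for immediate early genes. With the filter at the 75th percentile it was -0.15 for SRF and cofactors and -0.16 for immediate early genes, and with rows above the random probes only it was -0.01 for SRF and cofactors. The causes were not tested.

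No paired analysis was possible because there was a single array of each pretreatment, which also leaves none to drop. Precision is limited by having 1 pair of arrays. Levels near the random probes limit FOS, FOSL2 and BATF, whose rows read 2.15 to 6.23 times that background.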
